A study of Apis mellifera with 12 samples.

Results

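Both mating and CO2 narcosis move a young honey bee queen towards egg laying, and the comparison described here asks which genes stood apart from virgin queens under both treatments. It sets the mean of the mated and the CO2-treated queens, each treatment with a weight of 0.5, against the virgin queens, and so uses all 12 libraries of the series and the 13038 of 15314 genes with at least 10 counts summed over them. No gene passed the threshold of this comparison in the test used here. Of the 14 genes nearest to it, 6 had every treated queen on one side of every virgin queen, among them the elongase gene GB40681 with a like fold change under both treatments, and in the other 8 the mated and CO2-treated queens differed from each other.

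A queen mates on flights early in adult life, stores the sperm and then lays eggs, and her flight, light response, pheromones and brain gene expression change with that step. CO2 narcosis is used by beekeepers to bring queens into lay without mating. In insects generally, the brain reads mating through sensory input and through hormones and nutrients carried in the haemolymph, with insulin signalling, juvenile hormone and ecdysteroids among the known carriers.

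The queens were sisters of Australian commercial stock (strain ligustica) reared from 1 source colony, and all were 8 days old when sampled. Mated queens (n = 4) had returned from a mating flight made at 6 days of age, CO2-treated queens (n = 4) had been put under CO2 in 2 sessions of 10 minutes on successive days, and virgin queens (n = 4) were caged alongside them without gas. Per the methods of the study, the abdomens of the mated queens held developing eggs and semen, and those of the other queens held neither. The cage was thus common to CO2-treated and virgin queens and the flight was particular to mated queens, and 1 library was made from each whole brain.

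The libraries held between 12434733 and 20677514 counts, and levels are given as CPM (the number per 1e+06 counts in a library). The least level taken as detected, 3 counts, came to 0.145 to 0.241 CPM and allows for counting error alone. That range is in CPM of the total counts, before the scaling given below, and is not on the scale of the later values. One transcript, GB49544, took 13.7% to 42.7% of the counts of mated queens, 1.12% to 5.02% of those of CO2-treated queens and 0.153% to 2.89% of those of virgin queens. Counts were therefore scaled by the TMM method of edgeR, with factors between 0.556 and 1.37, and CPM values below are on that scale. Over all genes the median log2 fold change of the mean was then -0.04, against -0.44 without TMM factors. As neuronal markers, the synaptotagmin gene syt (GB54319) was found at 172 to 374 CPM in mated, 53.3 to 228 CPM in CO2-treated and 31.8 to 136 CPM in virgin queens, whereas brp (GB51381), which encodes a protein of the presynaptic active zone, stayed at or below 4.25 CPM in every queen. These 2 markers went in opposite directions. The log2 fold change of the mean was 1.15 for syt and -1.05 for brp. The libraries of 4 queens (mated queen 1, CO2-treated queens 1 and 2, virgin queen 1) carry the suffix br in their sample names, whose meaning is not given.

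By the quasi-likelihood F-test of edgeR with Benjamini-Hochberg adjustment, 0 of 13038 genes (0%) had an adjusted p under 0.05 for the mean of both treatments over virgin queens. At an unadjusted p under 0.05 there were 1436 genes (11.0%), 692 of them (5.31%) above and 744 (5.71%) below the virgin mean in the treated queens. The lowest adjusted p was 0.0778, and 14 genes lay under 0.1, with 5 higher and 9 lower. The call depended on the tool, as DESeq2 gave 169 genes (1.30%), the exact test of edgeR on 8 treated against 4 virgin queens gave 23 (0.176%) when each gene had its own (tagwise) dispersion and 454 (3.48%) when all shared one, and all 23 were among the 169. Leaving out mated queen 1 gave 12 genes by the quasi-likelihood test, and leaving out any other queen gave 0. With each queen left out in turn, the unadjusted count ranged from 802 (without virgin queen 2) to 2047 (without virgin queen 6).

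A mean of 2 treatments can be carried by one of them. Each gene was therefore also given the larger of its p-values for mated over virgin and for CO2-treated over virgin queens, counted only where both fold changes had the same sign. By this rule 0 genes passed after adjustment with edgeR's quasi-likelihood test and 247 (1.89%) had a larger p under 0.05 before it, 122 of them (0.936%) higher and 125 (0.959%) lower. The 247 became 541 without virgin queen 6, 502 without virgin queen 4, 121 without virgin queen 2 and 132 without CO2-treated queen 5. With DESeq2, 2 genes passed the same rule, GB40681 and GB55330. Of the 1436 genes above, 1115 differed more from virgin queens in mated than in CO2-treated queens, and 36 had opposite signs under the 2 treatments. The pairwise comparisons share the 4 virgin queens, so their values are set side by side here and no correlation between them is given.

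**Figure D1:**
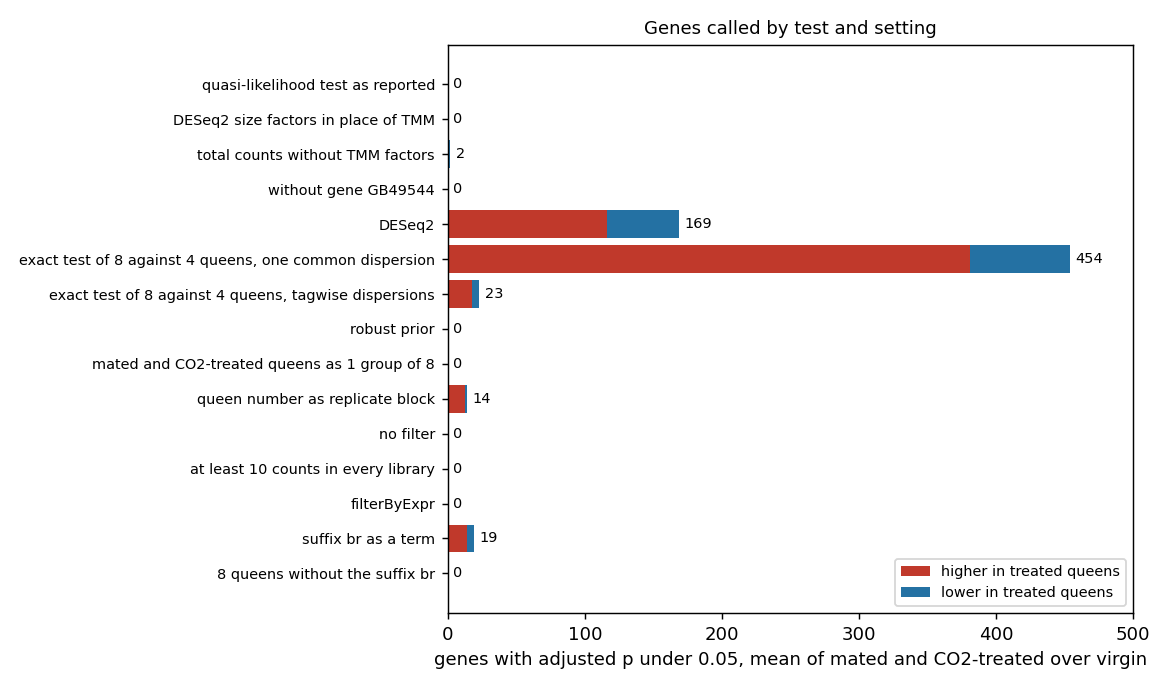
Bars show the number of genes with an adjusted p under 0.05 for the mean of mated and CO2-treated over virgin queens (x axis), split by direction, for each test or setting (y axis). The quasi-likelihood test gave 0 genes, the queen number as a block 14, the br suffix as a term 19, DESeq2 169, and the exact test of edgeR 454 when one dispersion was used for all genes.

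In 105 genes (0.805%) all 8 treated queens lay on one side of all 4 virgin queens, above them in 44 genes (0.337%) and below them in 61 genes (0.468%). The 44 genes above had a median log2 fold change of 1.42 in mated and 0.98 in CO2-treated queens, and the 61 genes below had medians of -0.70 and -0.58 in mated and in CO2-treated queens. The mated queens stood further from the virgin queens in 37 of the 44 and in 50 of the 61. At least a doubling under each treatment was seen in 21 of the 44, of which 14 had an average log2 CPM of 0 or more. At least a halving was seen in 12 of the 61, of which 7 reached that level. The rest of these lie at few counts, as GB50570 with 2, 1, 1 and 1 counts in CO2-treated and 0 in virgin libraries. How many of all genes changed by as much was not counted. Mated and CO2-treated queens differed in 2 of the 105 genes, GB51828 and GB46921, by the adjusted quasi-likelihood test of edgeR, against 86 of all 13038 genes (0.660%). Genes without overlap numbered 403 without virgin queen 4, 308 without virgin queen 6, 236 without virgin queen 1 and 170 without CO2-treated queen 1. A rule over fewer queens is met more easily, so these rises cannot show how far the 105 genes rest on single queens.

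GB40681 was the gene with the smallest p under both treatments at once. Its Drosophila ortholog CG31522 belongs to the ELOVL family of elongases, enzymes that lengthen long-chain fatty acids. It had 4.57, 9.66, 4.00 and 6.50 CPM in mated queens and 2.56, 7.28, 10.9 and 3.63 CPM in CO2-treated queens, against 0.769, 0.296, 0.562 and 1.0 CPM in virgin queens. Every treated queen was above every virgin queen, and the mated and CO2-treated queens overlapped over most of their range. The virgin values rest on 6 to 15 counts per library. The log2 fold change was 3.24 for mated over virgin queens (edgeR quasi-likelihood adjusted p = 0.0139), 3.22 for CO2-treated over virgin queens (edgeR adjusted p = 0.115) and 3.23 for their mean (standard error 0.50, edgeR adjusted p = 0.0778). Before adjustment the quasi-likelihood p-values were nearly equal, at 3.41e-05 for mated and 3.51e-05 for CO2-treated queens. Each comparison was adjusted over its own genes, of which 157 passed for mated and 2 for CO2-treated over virgin queens. GB40681 thus passed in mated queens and not in CO2-treated queens or in the mean, at like fold changes. The mean did pass with DESeq2 (adjusted p = 2.45e-08) and with the tagwise exact test of edgeR (adjusted p = 6.17e-06). Mated over CO2-treated queens it differed by a log2 fold change of 0.02 with a standard error of 0.46. The mean lay between 2.98 and 3.49 when each queen was left out in turn, with adjusted p-values from 0.0444 (without mated queen 1) to 0.323 in edgeR.

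GB55330, whose ortholog is CG3690, came next by the same rule. It had 8.79, 7.79, 15.8 and 25.7 CPM in mated queens and 5.44, 5.2, 18.5 and 9.81 CPM in CO2-treated queens, against 0.666, 0.592, 1.07 and 3.52 CPM in virgin queens. Every treated queen was above every virgin queen, and virgin queen 6 came nearest to the treated queens. Its log2 fold change was 3.34 in mated queens, where it rose (edgeR quasi-likelihood adjusted p = 0.0284), and 2.77 in CO2-treated queens (edgeR adjusted p = 0.609). Before adjustment the p-values of this test were 0.000188 in mated and 0.000794 in CO2-treated queens. The next gene by number, GB55331, which was looked at after the values were seen, also had all treated above all virgin queens, at 3.22 to 12.7 CPM in mated, 2.5 to 5.95 CPM in CO2-treated and 0.888 to 2.19 CPM in virgin queens.

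GB47503, also among the 5 genes with the smallest larger p, has no ortholog name. It was found at 529, 731, 791 and 1149.7 CPM in mated queens and at 498, 521, 1364 and 656 CPM in CO2-treated queens, against 258, 175, 377 and 287 CPM in virgin queens. The lowest treated queen, at 498 CPM, was above the highest virgin queen, at 377 CPM. The log2 fold changes of 1.54 in mated and 1.47 in CO2-treated queens were close to each other. Neither comparison passed (edgeR quasi-likelihood adjusted p = 0.0705 and 0.702). Before adjustment the p-values of this test were also close, at 0.00120 in mated and 0.00172 in CO2-treated queens.

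Arginase, the enzyme that splits arginine into ornithine and urea, is encoded by the ortholog arg of GB51043. It had 74.3, 64.9, 100.4 and 93.4 CPM in mated queens and 27.5, 28.7, 75.0 and 33.4 CPM in CO2-treated queens, against 13.0, 21.8, 12.6 and 23.3 CPM in virgin queens. CO2-treated queen 5 stood with the mated queens and the other CO2-treated queens lay close above the virgin queens. The gene rose in mated queens with a log2 fold change of 2.24 (edgeR quasi-likelihood adjusted p = 0.0110), and the value in CO2-treated queens was 1.22 (edgeR adjusted p = 0.764). For the mean the log2 fold change was 1.73 with a standard error of 0.31 (edgeR adjusted p = 0.0928). GB51828 (CG10710) also stayed apart in all queens, but with unequal steps, at 47.8 to 87.4 CPM in mated, 25.9 to 34.5 CPM in CO2-treated and 13.5 to 23.8 CPM in virgin queens, and it was higher in mated than in CO2-treated queens (edgeR adjusted p = 0.0260).

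GB51351, Wnt2 and GB45188 were below the virgin queens in every treated queen and among the genes of lowest p. GB51351, which has no ortholog name, had 2, 1, 0 and 1 counts in the mated libraries and 9, 8, 8 and 8 counts in the CO2-treated libraries, against 116, 36, 16 and 16 counts in the virgin libraries. All mated queens were below all CO2-treated queens, and virgin queen 1 was far above the other virgin queens. Its log2 fold change was -4.92 in mated queens (edgeR quasi-likelihood adjusted p = 0.0118), where it fell, and -2.44 in CO2-treated queens (edgeR adjusted p = 0.690). With so few counts the size of the change in mated queens is known only loosely, with a standard error of 0.77.

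Wnt2 (GB53249) encodes a secreted ligand of the Wnt pathway. It had 25.5, 21.6, 12 and 13.3 CPM in mated queens and 44.0, 35.8, 19.2 and 30.0 CPM in CO2-treated queens, against 84.4, 62.5, 58.6 and 57.7 CPM in virgin queens. The virgin queens were the highest, and mated and CO2-treated queens overlapped. Its log2 fold change was -1.86 in mated queens, where it fell (edgeR quasi-likelihood adjusted p = 0.0124), -1.03 in CO2-treated queens (edgeR adjusted p = 0.807) and -1.44 for the mean, with a standard error of 0.24 (edgeR adjusted p = 0.0844). GB45188 (CG15629) was found at 6.18 to 9.52 CPM in mated, 9.63 to 12 CPM in CO2-treated and 16.6 to 27.6 CPM in virgin queens, and fell in mated queens with a log2 fold change of -1.31 (edgeR quasi-likelihood adjusted p = 0.0200). In CO2-treated queens its value was -0.89 (edgeR adjusted p = 0.716), with no treated queen reaching the virgin range.

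**Figure D2:**
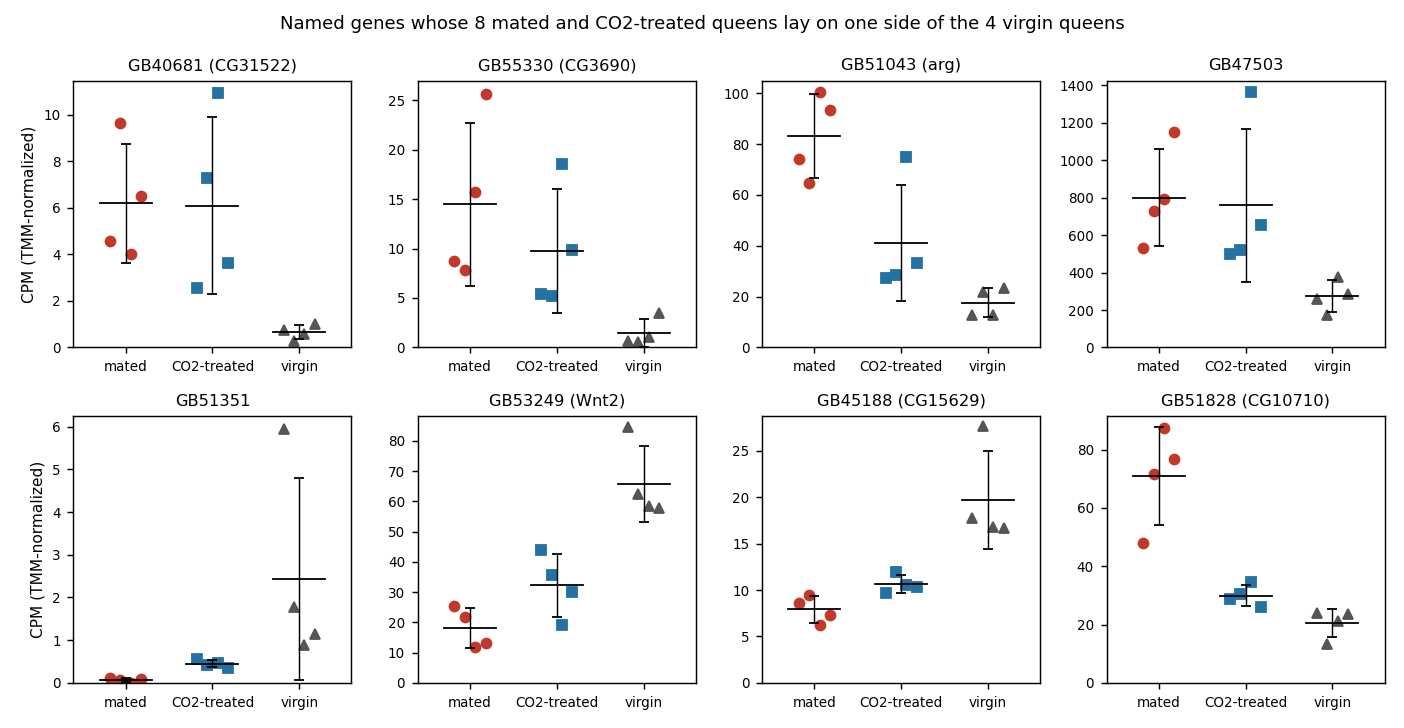
Points show the TMM-normalized CPM (y axis) of each mated, CO2-treated and virgin queen for 8 named genes, with the mean as a line and 1 SD as a bar (n = 4 per group). In GB40681 the mated queens had 4.00 to 9.66 CPM and the CO2-treated queens 2.56 to 10.9 CPM, against at most 1.0 CPM in virgin queens, whereas in GB51828 the CO2-treated queens lay between the mated and the virgin queens.

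Among the CO2-treated queens, queen 5 was most often the highest in genes that stood above the virgin queens. Over the 36 genes of average log2 CPM 0 or more in which all treated queens were above all virgin queens, CO2-treated queen 5 was the highest of its group in 21, and queens 1, 7 and 2 in 6, 5 and 4. It held 3261 CPM of Hml (GB50121), a hemocyte gene, against 722 to 1299 CPM in the other CO2-treated queens. In the 44 genes above, mated queen 1 was the lowest of its group in 22 and virgin queen 2 in 24. The part of blood cells or of any single queen in these values was not tested.

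Several further genes that stood above the virgin queens in all 8 treated queens were picked out after their values were seen, for the known role of their orthologs. The insulin receptor InR (GB49662) had 42.8, 66.6, 189 and 89.1 CPM in mated and 24.6, 43.1, 44.6 and 31.3 CPM in CO2-treated queens, against 16.8, 7.25, 22.9 and 22.0 CPM in virgin queens. The lowest CO2-treated queen was only just above the highest virgin queen, and mated queen 6 was more than double any other queen. InR rose in mated queens by a log2 fold change of 2.49 (edgeR quasi-likelihood adjusted p = 0.0212) and its value in CO2-treated queens was 1.06 (edgeR adjusted p = 0.832). PDK1 (GB43004), a kinase that acts downstream of the insulin receptor, had a log2 fold change of 1.29 in mated and 0.79 in CO2-treated queens, and its groups overlapped. GB51613 (CG32774), at 28.1 to 77.3 CPM in mated, 20.4 to 60.6 CPM in CO2-treated and 3.55 to 17.2 CPM in virgin queens, had log2 fold changes of 2.36 and 1.75 for mated and for CO2-treated queens. Neither passed, with edgeR adjusted p-values of 0.0679 and 0.832.

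Of the 14 genes under an adjusted p of 0.1 for the mean, the 6 without overlap (GB40681, GB51351, GB45188, Wnt2, GB51828 and GB51043) all passed for mated over virgin queens and 0 passed for CO2-treated over virgin queens by the quasi-likelihood test of edgeR. In the other 8, treated and virgin queens overlapped. Mated queens had the larger fold in 7 of these, which passed for mated over virgin queens (1.20% of all genes), and CO2-treated queens in 1, which passed for CO2-treated over virgin queens (0.0153% of all genes). In all 8 mated and CO2-treated queens differed from each other (0.660% of all genes), so that the mean lay between 2 groups that differed. The 14 genes were picked by the mean in these same libraries, so no excess over the shares of all genes is read from these counts.

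GB43890 is the plainest case. Its ortholog CG1827 encodes an aspartylglucosaminidase, a lysosomal enzyme that breaks down glycoproteins. Mated queens had 123, 188, 259 and 209.5 CPM and CO2-treated queens 17.7, 22.9, 28.4 and 24.8 CPM, against 18.1, 30.0, 16.2 and 24.2 CPM in virgin queens. Only the mated queens were high, and the CO2-treated and virgin queens overlapped. It rose in mated queens by 3.14 on the log2 scale (edgeR quasi-likelihood adjusted p = 0.000420), with 0.08 in CO2-treated queens.

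Lar (GB49390), a receptor phosphatase known from axon guidance in Drosophila, showed the opposite split. CO2-treated queens had 298, 181, 227 and 230.4 CPM and mated queens 64.2, 85.2, 83.2 and 69.2 CPM, against 77.2, 48.2, 60.3 and 49.7 CPM in virgin queens. All CO2-treated queens were high, and mated and virgin queens overlapped. Lar rose in CO2-treated queens by 1.99 on the log2 scale (edgeR quasi-likelihood adjusted p = 0.00481), and the value in mated queens was 0.36 (edgeR adjusted p = 0.419). PQBP-1 (GB44248), an ortholog of the polyglutamine-binding protein, had 10.0 to 22.1 CPM in CO2-treated and 0.632 to 1.44 CPM in mated queens, against 1.22 to 3.02 CPM in virgin queens. It had a log2 fold change of 2.70 in CO2-treated and -1.23 in mated queens, so that the mean of 0.74 hides 2 values of opposite sign.

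Of the genes lower in the mean, GB42799 (CG10407), the lipase-like GB42553 (CG6296), its neighbour by number GB42552 and the odorant receptor GB52375 (Or43a) fell in mated queens, with log2 fold changes between -3.63 and -2.78 (edgeR quasi-likelihood adjusted p = 0.00500 for each). Their values in CO2-treated queens were between -0.75 and -0.42. GB52375 had 0.879, 0.793, 0.783 and 1.08 CPM in mated and 10.1, 12, 6.41 and 4.39 CPM in CO2-treated queens, against 6.25, 20.7, 10.6 and 6.31 CPM in virgin queens. Only the mated queens were low. Mthl10 (GB54942), a receptor of the methuselah family, was found at 26.6 to 77.5 CPM in mated, 3.01 to 20.0 CPM in CO2-treated and 1.23 to 3.28 CPM in virgin queens, and CO2-treated queen 5 was the highest of its group. It rose in mated queens by 4.36 on the log2 scale (edgeR quasi-likelihood adjusted p = 0.00918).

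**Figure D3:**
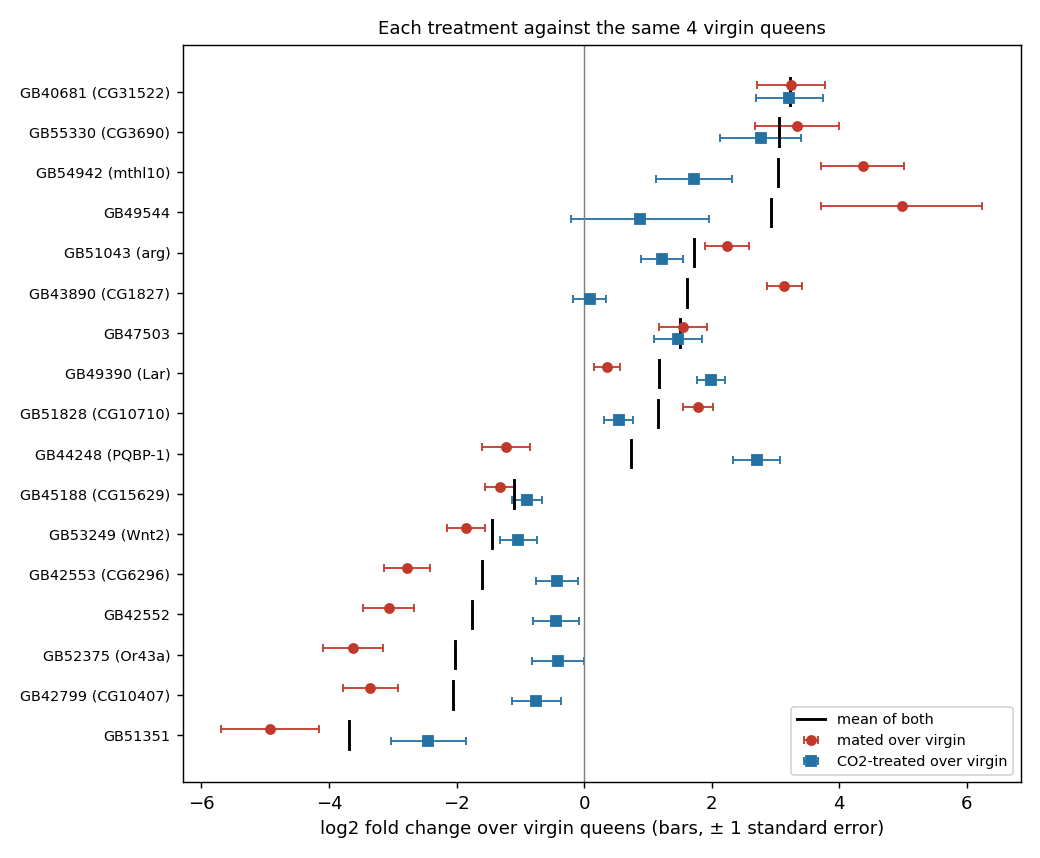
Points show the log2 fold change (x axis) of mated and of CO2-treated queens over the same 4 virgin queens for 17 named genes (y axis), with 1 standard error as a bar and the mean of both as a black line. GB40681, GB55330 and GB47503 have both points close together, GB43890 has a value of 3.14 in mated and 0.08 in CO2-treated queens, and PQBP-1 has points on both sides of 0.

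Phototransduction genes, which turn light into an electrical signal in the photoreceptors of the eye, had the lowest median of the lists in the mean of both treatments. The list was taken from genes that the study called in these libraries, as were the other lists, so a direction within it is not independent evidence. All 8 genes had lower means in treated queens, as had 7209 of all 13038 genes. The median log2 fold change of the list was -1.45 in mated, -1.43 in CO2-treated and -1.44 in both, against -0.04 for all genes in the mean. By the adjusted quasi-likelihood test of edgeR 0 of the 8 passed, and 6 had an unadjusted p under 0.05, against 11.0% of all genes. DESeq2 called Rh2 (adjusted p = 0.0350) and chp (adjusted p = 0.0289), against 1.30% of all genes. The exact test with tagwise dispersions called Rh2 (adjusted p = 0.0110), against 0.176% of all genes. With one common dispersion it called 6 of the 8, against 3.48% of all genes. Arr2 (GB51068), the arrestin that stops the response of rhodopsin, had 74.2, 128, 29.3 and 25 CPM in mated and 72.6, 29.8, 33.1 and 45.2 CPM in CO2-treated queens, against 437, 201, 108 and 30.1 CPM in virgin queens. Virgin queens 1 and 2 were above all treated queens and virgin queen 6 was among the lowest queens.

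The opsin Rh2 (GB50034) had 2.29, 11.8, 0.0870 and 0.181 CPM in mated and 2.38, 0.312, 0.520 and 2.06 CPM in CO2-treated queens, against 130.2, 27.9, 15.1 and 1.0 CPM in virgin queens. Again virgin queen 1 was the highest and virgin queen 6 lay among the treated queens. Chaoptin (chp, GB51189), a surface protein of photoreceptors, was the 1 gene of the list without overlap, at 7.44 to 16.3 CPM in mated, 10.0 to 20.9 CPM in CO2-treated and 21.1 to 40.5 CPM in virgin queens (log2 fold change of the mean -1.02, standard error 0.25, edgeR quasi-likelihood adjusted p = 0.232). Summed over the list, the level was 71.2 to 267 CPM in mated, 86.2 to 192 CPM in CO2-treated and 155 to 867 CPM in virgin queens. The fold changes of the list rest on single queens. Without virgin queen 1 the log2 fold change was -0.60 for Gbeta76C (GB41758), -0.22 for ninaC (GB45512) and -0.20 for norpA (GB46302). With all queens these values were -1.41, -1.46 and -0.99. Without virgin queen 6 the log2 fold change was -0.16 for Cpn (GB53116), against -1.64 with all queens. In whole brains, fewer cells of a type and less RNA per cell cannot be told apart, and the amount of eye tissue left on each brain was not tested.

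**Figure D4:**
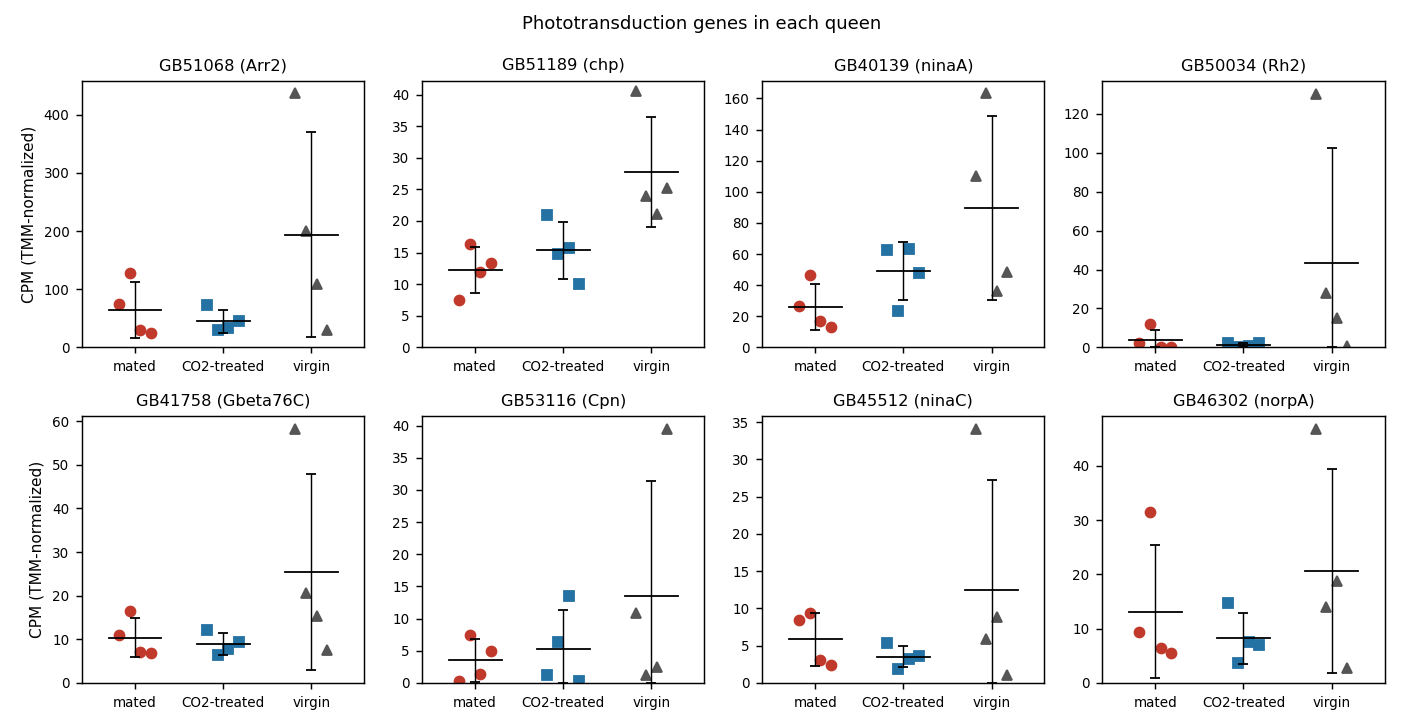
Points show the TMM-normalized CPM (y axis) of the 8 phototransduction genes in each mated, CO2-treated and virgin queen, with the mean as a line and 1 SD as a bar (n = 4 per group). The virgin queens spread widely, from 30.1 to 437 CPM in Arr2 and from 1.0 to 130.2 CPM in Rh2.

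In the other lists too, 0 genes passed the adjusted quasi-likelihood test of the mean in edgeR, whereas, marker lists aside, DESeq2 called 15 of their 109 genes, against 1.30% of all genes. The tagwise exact test called 3 of the 109, against 0.176% of all genes, and that with a shared dispersion 47, against 3.48%. Of all 13038 genes 5829 were higher in the mean, and at an unadjusted p under 0.05 there were 11.0%, or 3771 genes without TMM factors. The directions below held with DESeq2 size factors. Of 13 fatty acid genes, 12 had higher means in treated queens (11 without TMM factors) and 8 had an unadjusted p under 0.05 (4 without TMM factors), against 11.0% of all genes, and all 8 were higher. DESeq2 called 3 of the 13. The median log2 fold change was 1.73 in mated and 0.73 in CO2-treated queens, and GB40681 was the 1 member without overlap. Of 11 immune genes, 10 were higher in the mean and 6 had an unadjusted p under 0.05 (1 without TMM factors), against 11.0% of all genes. Among the 11 were PGRP-SA (GB51741) and GNBP1 (GB42981), which recognise microbial surfaces, with log2 fold changes of 1.31 and 1.27 in the mean. The median of the list was 1.53 in mated and 0.62 in CO2-treated queens, and Def (GB41428), a defensin, had -0.76 in the mean. Both hemocyte markers, Hml and srp, are also on the immune list, and their summed level was 843 to 2647 CPM in mated, 775 to 3328 CPM in CO2-treated and 319 to 1446 CPM in virgin queens.

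Of 15 cytochrome P450 genes 13 were higher in the mean (12 without TMM factors) and 5 had an unadjusted p under 0.05 (1 without TMM factors), against 11.0% of all genes. Of 6 basement membrane genes 5 were higher and 4 had an unadjusted p under 0.05 (3 without TMM factors). LanB2 (GB46618), a laminin gene, had a log2 fold change of 2.72 in mated and 0.07 in CO2-treated queens and was the 1 gene of the 6 that differed between these treatments (edgeR quasi-likelihood adjusted p = 0.00314). The laminin gene LanA (GB49929) had 1.73 in mated and 1.04 in CO2-treated queens. All 4 fat body markers were higher in the mean, GB49544 among them together with Lsp2 (GB51698), a storage hexamerin, and RfaBp (GB54507), which carries lipid in the haemolymph. The remaining marker, the storage hexamerin GB51697, had a log2 fold change of 1.85 in mated and -0.23 in CO2-treated queens. The median of the 4 markers was 3.32 in mated and 0.72 in CO2-treated queens, and their summed level was 143001 to 794329 CPM in mated, 14229 to 52938 CPM in CO2-treated and 3318 to 32564 CPM in virgin queens. In every treated queen most of that sum was GB49544, and without it the other 3 came to 9752 to 25296 CPM in mated, 5557 to 8666 CPM in CO2-treated and 2200 to 7148 CPM in virgin queens. The part of fat body or haemolymph left on the brains was not tested. Of 19 muscle genes 16 were higher in the mean (15 without TMM factors) and 4 had an unadjusted p under 0.05 (2 without TMM factors), 1 of them lower, against 11.0% of all genes, and the summed level ranged from 1479 to 19684 CPM in mated, from 1324 to 10622 CPM in CO2-treated and from 1506 to 7281 CPM in virgin queens.

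All 5 genes of the immediate early and hormone-responsive list were higher in the mean and 4 had an unadjusted p under 0.05 (2 without TMM factors), against 11.0% of all genes. Eip75B (GB47224), a nuclear receptor induced by ecdysone, had 269.6, 291, 562 and 339 CPM in mated and 201, 215, 179 and 236 CPM in CO2-treated queens, against 168, 47.7, 184 and 92.0 CPM in virgin queens. All mated queens were above all others, and CO2-treated queen 5 lay below the highest virgin queen. The Jun and Fos orthologs Jra (GB53318) and kay (GB42049) had log2 fold changes of 1.02 and 0.95 in the mean. The median of the list was 1.46 in mated and 0.44 in CO2-treated queens, and without TMM factors 0.66 in mated and 0.39 in CO2-treated queens.

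Both biogenic amine genes were lower in the mean, as were 7209 of all 13038 genes. DESeq2 called both, against 1.30% of all genes, and neither exact test called either of them. Dat (GB51044), an arylalkylamine N-acetyltransferase that acetylates dopamine and serotonin, had 107, 120.1, 120.0 and 72.1 CPM in mated and 177, 149, 166 and 144 CPM in CO2-treated queens, against 289, 368, 140.0 and 227 CPM in virgin queens. Virgin queen 4 lay below the CO2-treated queens, and the other virgin queens were above all treated queens. Its log2 fold change was -0.99 in the mean, -1.29 in mated and -0.69 in CO2-treated queens (edgeR quasi-likelihood adjusted p = 0.222 for the mean). Trh (GB44366), a tryptophan hydroxylase of serotonin synthesis, had -1.32 in mated and -0.57 in CO2-treated queens.

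Of 10 odorant receptors 8 were lower in the mean (9 without TMM factors), with a median of -1.53 in mated and 0.33 in CO2-treated queens, and 2 of the 10 differed between these treatments by the adjusted quasi-likelihood test of edgeR (0.660% of all genes). Of 6 odorant binding protein genes 5 were higher, with medians of 2.34 in mated and 0.92 in CO2-treated queens. Pbprp2 (GB53372) was the exception, at 38.8 to 158 CPM in mated, 286 to 694 CPM in CO2-treated and 466 to 1021 CPM in virgin queens. For the 4 heat shock genes the median of the mean was -0.05, with 2 higher and 2 lower, and without TMM factors all 4 were lower. His2B (GB47505) had the larger value in CO2-treated queens, at 5.33 to 10.6 CPM in mated, 13.2 to 20.3 CPM in CO2-treated and 3.95 to 8.97 CPM in virgin queens.

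**Figure D5:**
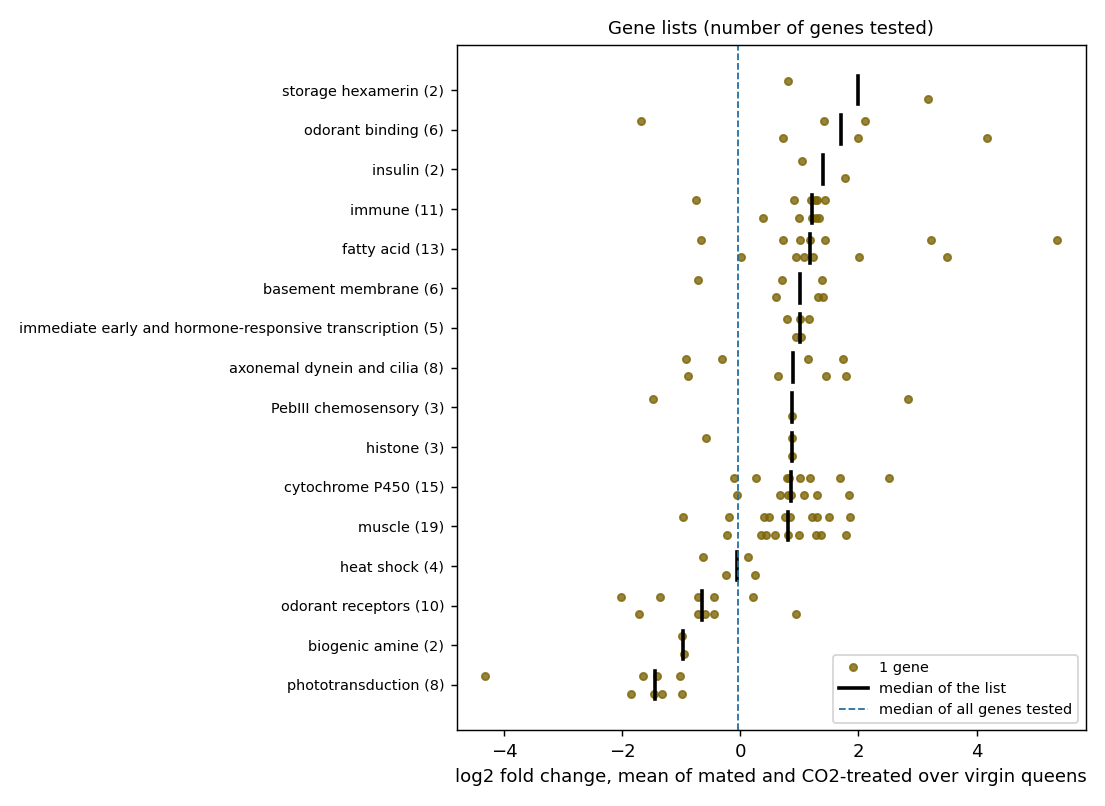
Points show the log2 fold change (x axis) of the mean of mated and CO2-treated over virgin queens for each gene of 16 lists (y axis, number of genes tested in parentheses), with the median of each list in black and the median of all genes tested as a dashed line at -0.04. The phototransduction list has a median of -1.44 and all its genes below 0, and the fatty acid list a median of 1.19.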

How the data were processed

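Brain RNA of 12 queens was sequenced as single-end reads of 50 bases. Per the methods, the authors trimmed reads with Trimmomatic, dropped rRNA matches found by SortMeRna, mapped with TopHat to assembly 4.5 and counted with SAMtools idxstats. The table they deposited holds raw read counts of 15314 genes, with no normalization, so that multi-mapping between close paralogs was not resolved here. A second deposited table of scaled counts was not used. Drosophila ortholog names are those the study gives for genes it lists (592 of the genes tested).

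The analysis ran in edgeR 4.0.16 under R 4.3.3. Genes whose sum over the libraries reached 10 counts were scaled by TMM and fitted with 3 groups in a quasi-likelihood model with 9 residual degrees of freedom, and p-values were adjusted by Benjamini-Hochberg over all 13038 genes, with a threshold of 0.05. A standard error is the size of the log2 fold change over the root of F and only restates the test. Overlap was judged on log2 CPM (prior count 2). The test was tested on simulated data.

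Named genes were to be the 12 largest rises and 12 largest falls without overlap and the 3 largest in each direction past the threshold. As no gene passed, they are the 6 of smallest p in each direction, the 5 of smallest larger-of-2 p, the phototransduction list, GB49390, GB44248 and GB49544, and genes outside the rule are said to be so or are members of the gene lists. The members and lists were chosen with earlier results of these data known, and most lists hold genes that the study called in these libraries. Each queen is 1 animal, all from 1 colony. Alternatives were DESeq2 1.42.0, exact tests, other scalings and filters, a robust prior, 1 group of 8 treated queens, the queen number as a block, the suffix as a term, the 8 queens without the suffix (the last 2 chosen after seeing the data), and each queen left out. Tables and figures used Python 3.11.15, pandas 2.3.3, numpy 2.4.6 and matplotlib 3.10.9.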

Additional observations from a re-analysis of the deposited data

Results flagged for a closer look

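The mean of both treatments hides a tested difference between mated and CO2-treated queens in 8 of the 25 named genes, against 0.660% of all genes (p-values adjusted over all genes, quasi-likelihood test of edgeR). GB49390 and GB44248 were named with their higher values in CO2-treated queens already known. The others were named for a small p of the mean in these same libraries. The share over all genes is therefore not a like background, and no excess is read from it. Mated queens were higher than CO2-treated queens in GB43890 (adjusted p = 0.000556) and GB51828 (adjusted p = 0.0260). They were lower in GB49390 (Lar, adjusted p = 0.00416), GB44248 (PQBP-1, adjusted p = 0.00129), GB52375 (Or43a, adjusted p = 0.00914), GB42553 and its neighbour by number GB42552 (adjusted p = 0.0115 for each) and GB42799 (adjusted p = 0.0166). Among 75 groups of 4 queens looked at in the named genes, 1 had a queen far from the others: in GB45188, virgin queen 2 had a gap to the next queen of 0.870 of the range of its group on the log2 CPM scale, and chance alone gives about 1 in 20 groups.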

How the results depend on the processing

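The number of genes called for the mean was 0 with DESeq2 size factors, without GB49544, with a robust prior, with 1 group of 8 treated queens, under each of 3 other filters and in the 8 queens without the br suffix. It was 2 with total counts (1 without overlap), 169 or 1.30% with DESeq2 (45 without overlap) and 19 with the br suffix as a term (7 without overlap). The exact test gave 23 or 0.176% with tagwise dispersions (11 without overlap) and 454 or 3.48% with one common dispersion (29 without overlap). Of all 13038 genes 105 (0.805%) were without overlap. A call and a lack of overlap rest on the same difference between treated and virgin queens, so no excess is read from these counts. The rule on both p-values gave 2 genes with DESeq2 and 0 under the other settings it was run with. Leaving out each queen gave 0 to 12 genes for the mean (0 to 4 without overlap), and 0 for the rule on both p-values. With the queen number as a replicate block 14 genes passed, of which 2 were without overlap. The numbers name different animals, so the queens were not taken as paired. The correlation of deviations was -0.284 to 0.514 over the 7 same-numbered pairs, with a mean of 0.173. Over the 41 other pairs it was -0.625 to 0.389, with a mean of -0.029. Of 11 queens, 4 correlated best with a queen of their own number. Without TMM factors 3771 genes had an unadjusted p under 0.05 and 276 were without overlap, against 1436 and 105. Genes without overlap numbered 589 in the 8 queens without the suffix, and 77 to 107 under the other filters. No named gene changed the sign of its mean fold change under any alternative run. The cause of these differences was not tested. With 4 queens a group from 1 colony, the p-values cover the spread among these sisters, and other colonies, ages or brain parts were not measured.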
